A study of Mus musculus with 18 samples.

Results

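The expression of 35 genes of mitosis and the kinetochore was followed in primary mouse Leydig cells, the steroid-producing cells of the testis, during oxidative stress and statin treatment. The members were the rows of the deposited gene count table whose symbol was on a list of 35 names, and all 35 were found among 55487 genes and passed the low-count filter that left 16432 genes for testing. All cultures were transfected, either with a small interfering RNA (siRNA) named siprdx1, against the peroxidase gene Prdx1, or with siNC, the control siRNA. Each arm held 3 groups of 3 libraries, 18 in all: no peroxide; 200 µM H2O2 for 30 min; and the same H2O2 exposure followed by 5 µM fluvastatin (FV), an inhibitor of the mevalonate pathway, for 6 hours. In place of FV the other groups had 0.1% DMSO, no DMSO is recorded for the FV groups, and no group had FV without H2O2. The labels call the libraries biological replicates without naming the animals behind them, so the p-values measure the spread between these cultures.

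A cell that enters mitosis raises cyclin B and its kinase partner Cdk1, condenses its chromosomes and builds a spindle of microtubules. The kinetochore, a protein assembly on each centromere, ties the chromosomes to the spindle, and the spindle checkpoint holds back chromosome separation until every kinetochore is attached. The anaphase-promoting complex then marks cyclin B and securin, which protects the cohesion of sister chromatids, for destruction, the central spindle forms, and the cell divides. Most of these genes are transcribed in late S and G2 phase, under repression by the DREAM complex in resting cells and activation by B-Myb and FoxM1 in cycling cells. Adult Leydig cells rarely divide in the testis, while cells put into culture with serum can.

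The libraries held 15201530 to 23898435 counts. Prdx1 was at 1279 to 1690 CPM (read counts over the TMM-adjusted size of each library) in the 9 siNC libraries and at 426 to 576 CPM in the 9 siprdx1 libraries, a log2 difference of -1.54 (exact permutation test within treatments, two-sided, p = 0.00025, the smallest its 8000 rearrangements allow). Of 9 Leydig markers 7 passed the filter, among them Star and Cyp11a1, while Cyp17a1 and Hsd17b3, which act late in testosterone synthesis, averaged 0.0318 and 0.067 CPM. All 17 macrophage and all 9 fibroblast markers passed, with group medians of the summed level of 8387 to 9933 and 15320 to 19600 CPM. These sums mostly follow a few genes. Lyz2 alone averaged 5677 CPM, and Col3a1, Col1a2, Col1a1 and Dcn averaged 5662, 4377, 3716 and 2987 CPM. Of the same fibroblast list, Postn, Lum and Fap averaged only 10.4, 5.26 and 1.79 CPM. Of 13 germ cell markers 2 passed and 1 was at 0 in all libraries. In bulk libraries from such mixed cultures, fewer dividing cells and less mRNA per dividing cell cannot be told apart.

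The finding that the values below turn on was a fall of 4 genes, Kif20b, Cenpf, Cenpe and Mki67, in the siprdx1 cultures given H2O2. Sequence before their start sites is shown beside that of Cdk1 and Top2a, which were not called with H2O2 in the siprdx1 arm, because such genes are textbook examples of promoters that pair a cell cycle element with CCAAT boxes. Each line runs 5′ to 3′ on the gene's strand, from 200 bases before to 20 bases after the start in the RefSeq annotation of GRCm38.p6. Capitals mark the motif TTTGAA, which reads TTCAAA where it lies on the other strand. They also mark the motif TTTAAA, the same on both strands, and the CCAAT box, which reads ATTGG where it lies on the other strand.
Kif20b, chr19:34922158-34922377, plus strand: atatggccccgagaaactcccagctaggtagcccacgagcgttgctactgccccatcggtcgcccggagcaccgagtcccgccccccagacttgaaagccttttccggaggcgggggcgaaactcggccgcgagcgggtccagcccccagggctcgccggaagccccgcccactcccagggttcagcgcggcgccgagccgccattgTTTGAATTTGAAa
Cenpe, chr3:135212363-135212582, plus strand: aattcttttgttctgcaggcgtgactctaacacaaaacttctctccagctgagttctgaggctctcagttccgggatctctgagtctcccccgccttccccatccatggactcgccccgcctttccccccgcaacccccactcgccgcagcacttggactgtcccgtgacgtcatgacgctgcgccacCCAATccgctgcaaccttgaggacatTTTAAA
Cenpf, chr1:189688067-189688286, minus strand: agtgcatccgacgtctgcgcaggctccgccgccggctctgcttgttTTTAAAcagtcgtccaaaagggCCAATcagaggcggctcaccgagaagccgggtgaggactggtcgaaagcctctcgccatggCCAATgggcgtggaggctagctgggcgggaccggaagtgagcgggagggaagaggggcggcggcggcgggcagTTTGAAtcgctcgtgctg
Mki67, chr7:135716360-135716579, minus strand: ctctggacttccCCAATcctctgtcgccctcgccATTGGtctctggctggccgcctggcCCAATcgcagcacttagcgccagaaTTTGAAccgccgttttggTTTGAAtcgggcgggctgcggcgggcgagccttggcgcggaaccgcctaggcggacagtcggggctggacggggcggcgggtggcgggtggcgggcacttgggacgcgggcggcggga
Cdk1, chr10:69352893-69353112, minus strand: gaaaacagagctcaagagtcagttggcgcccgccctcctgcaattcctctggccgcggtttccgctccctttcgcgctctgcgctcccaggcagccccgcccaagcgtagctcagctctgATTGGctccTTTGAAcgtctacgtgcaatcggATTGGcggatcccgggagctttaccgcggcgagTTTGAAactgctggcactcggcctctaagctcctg
Top2a, chr11:99024170-99024389, minus strand: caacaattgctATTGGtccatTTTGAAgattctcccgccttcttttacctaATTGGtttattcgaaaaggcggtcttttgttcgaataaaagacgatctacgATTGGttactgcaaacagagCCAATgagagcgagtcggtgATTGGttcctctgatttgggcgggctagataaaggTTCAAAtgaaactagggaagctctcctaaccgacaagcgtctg
The motifs did not divide the 4 genes from the other pair. Kif20b had 2 TTTGAA and no CCAAT in this window, Cenpe had 1 TTTAAA and 1 CCAAT, Cenpf had both TTT forms once and 2 CCAAT, and Mki67 had 2 TTTGAA and 3 CCAAT. Cdk1 and Top2a each had 2 TTTGAA, with 2 and 5 CCAAT.

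Over the family, a promoter entry of 300 bases (250 before to 50 after the start) was matched by symbol for 31 of the 35 genes; Ccna2, Aurkb, Kif20a and Tpx2 had none. TTTGAA was found on either strand in 25 of the 31 (80.7%), against 20.2% of 27025 genes with an entry. TTTAAA was found in 9 (29.0%, against 14.9%) and CCAAT in 24 (77.4%, against 41.1%). At least 1 TTT form together with CCAAT was found in 23 members (74.2%, against 12.2%), and 17 (54.8%, against 13.3%) held CCAAT at least 2 times. Nuf2 and Nusap1 held none of the 3 motifs in their windows. These are matches of letters, and no binding was measured.

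All 35 genes were expressed in every library. The lowest count of any member in a library was 87 and the highest 3637. Per kilobase of the longest transcript (GENCODE M21), the highest levels in siNC cultures belonged to Top2a, the topoisomerase that untangles sister chromatids, at 20.1 ± 1.06 CPM per kb (SD, n = 3), Prc1, which bundles microtubules of the central spindle, at 19.0, and Ccna2, the cyclin of S and G2 phase, at 18.3. The lowest were Cenpe, the kinetochore motor that carries chromosomes to the spindle equator, at 3.20, Ttk, the kinase that starts checkpoint signalling, at 2.49, and Cenpf, a large coiled-coil protein of the outer kinetochore, at 2.05 ± 0.384 CPM per kb. The ranges of neighbours in this order overlapped in 29 of 34 pairs, and the order was broken after Ccna2, Anln, Plk1, Ndc80 and Cenpe.

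**Figure D1:**
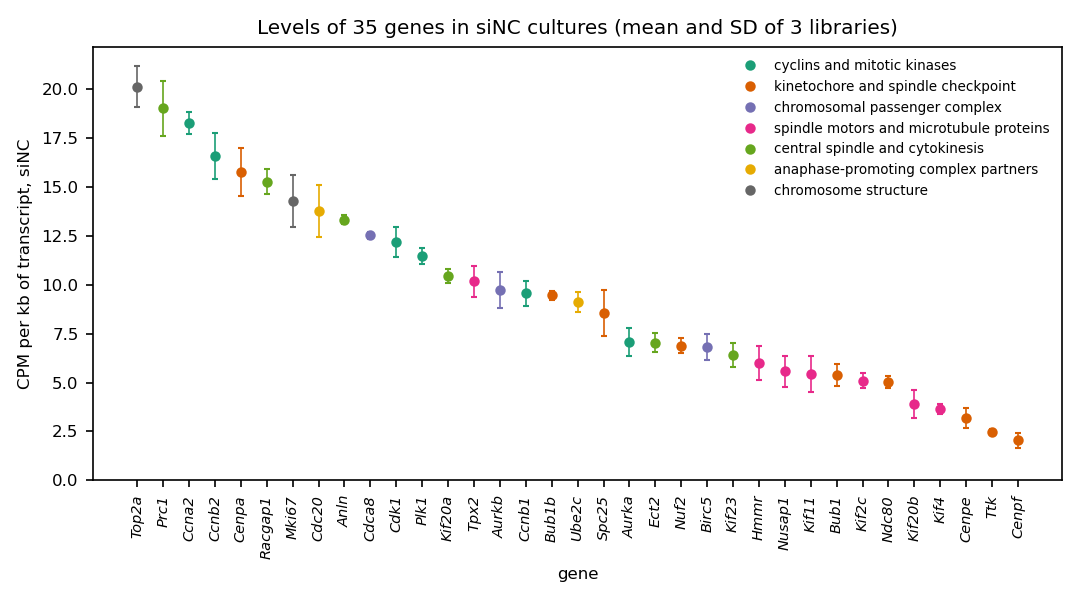
Level of each of the 35 genes in the 3 siNC libraries, in CPM per kb of transcript (vertical axis), with genes from highest to lowest on the horizontal axis; points are means, bars are SD and colours mark the roles. Top2a, Prc1 and Ccna2 stand highest at 18.3 to 20.1, and Cenpe, Ttk and Cenpf lowest at 2.05 to 3.20.

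Across groups most members moved little. The fold between a gene's highest and lowest group mean was 1.10 to 2.75 with a median of 1.22, beside a median coefficient of variation within groups of 6.77%. The summed level of the 35 genes was 1146 ± 46.3 CPM in siNC, 1193 ± 23.5 after H2O2 and 1156 ± 28.8 after H2O2 and FV. In the siprdx1 arm the 3 sums were 1061 ± 33.6, 1024 ± 38.9 and 1056 ± 16.6 CPM (SD, n = 3 each). Without Kif20b, Cenpf, Cenpe and Mki67 the siprdx1 sums were 873.5 ± 31.0, 901.4 ± 35.4 and 890.7 ± 12.3 CPM, so that the sum with H2O2 was then above the one without it. The lowest group mean was for 12 genes in siprdx1 with H2O2, for another 12 in siprdx1 with H2O2 and FV, for 10 in siprdx1 without H2O2 and for 1 in an siNC group. The highest mean was in an siNC group for all 35, for 21 of them in siNC with H2O2.

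**Figure D2:**
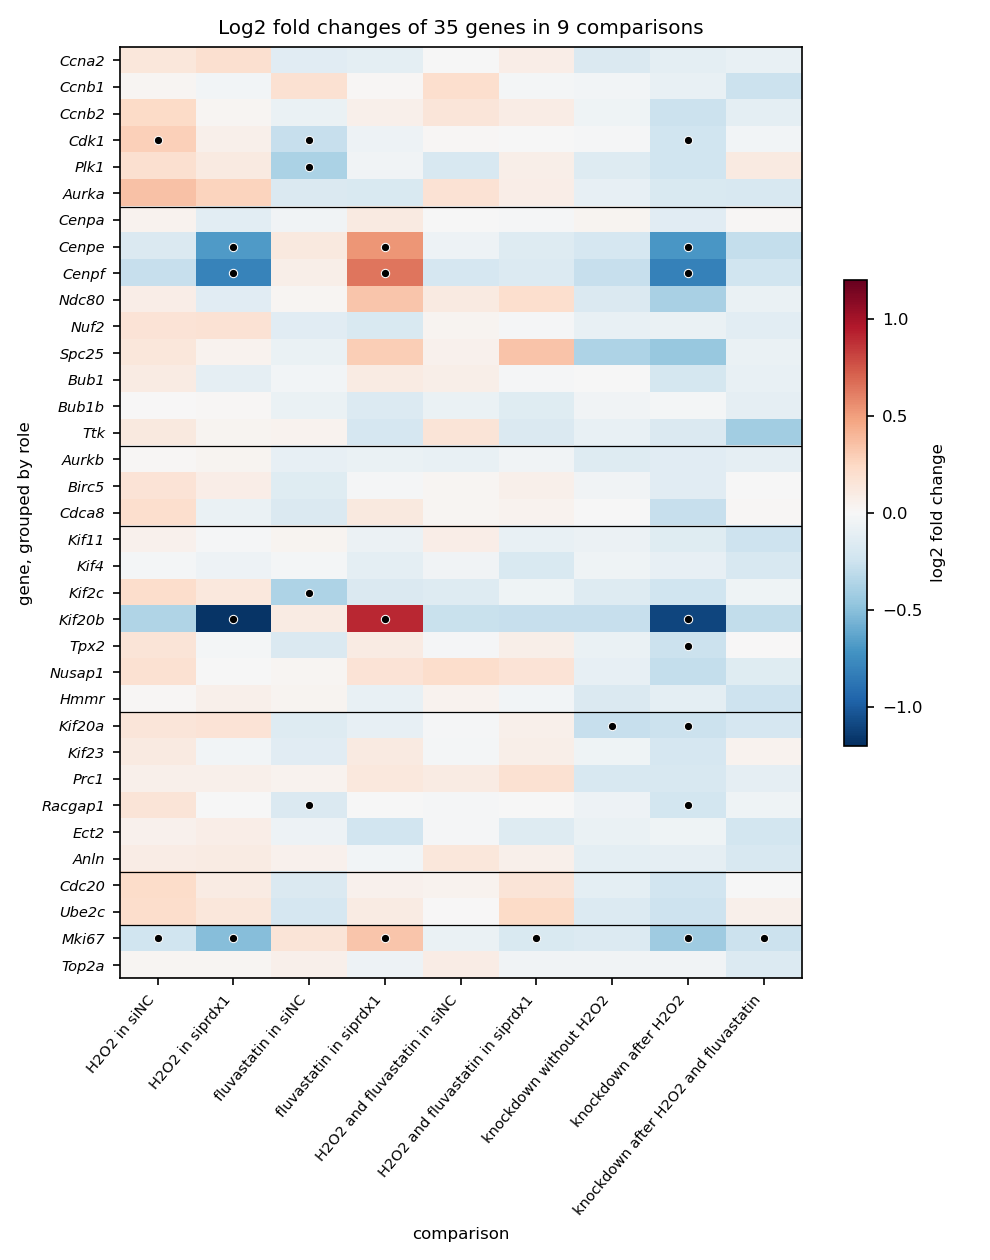
Log2 fold changes (colour) of the 35 genes (rows, by role) in 9 comparisons between groups (columns), with dots on called genes. Kif20b, Cenpf, Cenpe and Mki67 stand out as lower with H2O2 in siprdx1, lower in the knockdown after H2O2 and higher with FV in siprdx1, where they reach -1.18, -1.10 and 0.90 for Kif20b.

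H2O2 in siprdx1 cultures lowered 4 of the 35 genes and raised none, while the other 31 had log2 changes between -0.135 and 0.263 and were not called. Kif20b, a spindle motor that acts in late cytokinesis, fell to 0.441 of its level. Of the kinetochore genes, Cenpf fell to 0.572 and Cenpe to 0.624. Mki67, which coats mitotic chromosomes and is the common proliferation marker, fell to 0.703. Over all tested genes 5.39% were called lower and 2.48% higher, where a call is an adjusted p below 0.05.

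Kif20b was at 16.02, 17.1 and 20.8 CPM in the siprdx1 libraries and at 8.63, 6.61 and 8.51 CPM after H2O2, a log2 fold change of -1.18 ± 0.14 (SE; edgeR quasi-likelihood test, Benjamini-Hochberg adjusted p = 3.32e-06). Every library with H2O2 lay below every library without it. Cenpf was at 17.5, 17.9 and 20.95 CPM before and at 11.7, 9.35 and 11.2 CPM after H2O2 (-0.81 ± 0.12, edgeR adjusted p = 0.000137). Cenpe was at 21.4, 20.7 and 24.4 CPM before and at 15.2, 12.5 and 13.8 CPM after (-0.68 ± 0.11, edgeR adjusted p = 0.000232). For both kinetochore genes the groups stood apart as well. Mki67 went from 124, 131 and 131 CPM to 90.2, 90.6 and 90.8 CPM (-0.51 ± 0.06, edgeR adjusted p = 4.42e-06), the tightest group of 3 among the 4 genes.

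**Figure D3:**
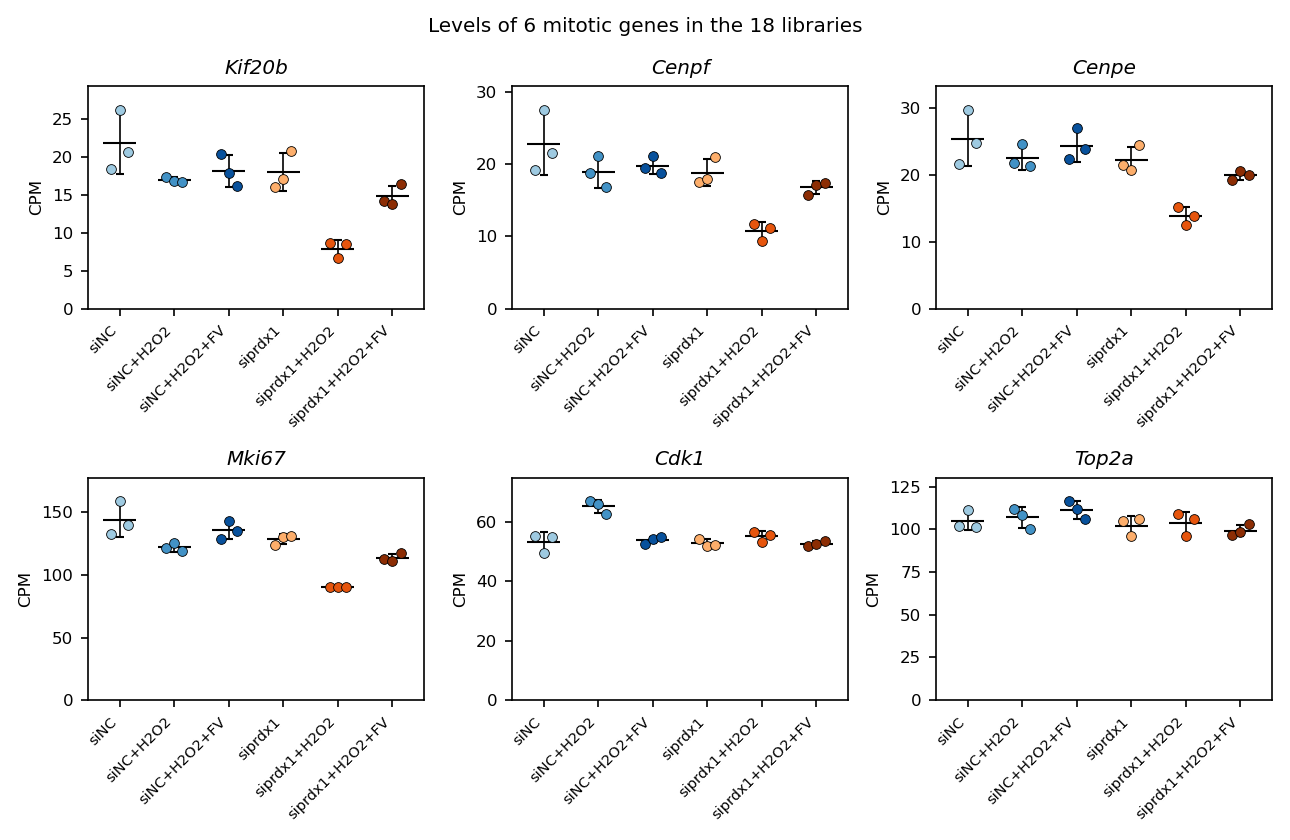
CPM (vertical axis, from 0) of 6 genes in each of the 18 libraries (points) by group (horizontal axis), with group means as short lines and SD as error bars. Kif20b, Cenpf, Cenpe and Mki67 are lowest in the 3 siprdx1 libraries with H2O2 (Kif20b 6.61 to 8.63 CPM), while Cdk1 is highest in siNC with H2O2 (62.6 to 66.9 CPM) and Top2a is level.

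Other genes of the same machines did not pass the test. Top2a, also a chromosome protein, was at 105, 96.0 and 106 CPM before and at 109, 96.3 and 106 CPM after H2O2 (log2 fold change 0.02). Ccnb1, the cyclin that drives entry into mitosis, was at 23.5, 20.1 and 26.7 CPM and then at 26.4, 20.6 and 21.5 CPM (-0.03). In both the groups overlapped. Of the 9 kinetochore and checkpoint genes 2 fell, of 7 spindle motors and microtubule proteins 1 and of 2 chromosome structure genes 1. None of the 6 cyclins and mitotic kinases, 3 chromosomal passenger genes, 6 central spindle and cytokinesis genes or 2 partners of the anaphase-promoting complex was called. The 4 calls held under each alternative analysis and without each of the 6 libraries in turn. Summed fibroblast markers were at 15090 to 15840 CPM before and at 17340 to 18610 CPM after H2O2, with 3 of 9 called higher (Col3a1, Col1a2 and Dcn), none lower and none at 0. Summed macrophage markers were at 8334 to 8573 and 8650 to 8853 CPM, with none of 17 called by edgeR and 1 at an unadjusted p below 0.05. The part of these shifts in the result was not tested.

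The 4 genes had the 4 longest transcripts of the 35, which was seen after their values were known. Their longest transcripts measured 11.1 kb (Cenpf), 10.1 kb (Mki67), 7.91 kb (Cenpe) and 5.56 kb (Kif20b), with GC contents between 39.4% (Kif20b) and 46.6% (Mki67), and Top2a was next at 5.22 kb. Among 2327 other tested genes with transcripts at least as long as that of Kif20b, 8.90% were called lower with H2O2 in siprdx1, and their median log2 fold change was -0.06. Of 437 tested genes of at least 6000 bases and under 43% GC, 47 (10.8%) were called lower. Transcripts that stay in the nucleus moved in the same libraries: Malat1 was at 1436, 1585 and 1440 CPM before and at 530, 632 and 505 CPM after H2O2 (-1.42 ± 0.11, edgeR adjusted p = 5.16e-08). Such RNAs fell with H2O2 in siNC too, Malat1 by 0.91, Neat1 by 1.05, Meg3 by 1.33 and Kcnq1ot1 by 1.76 on the log2 scale. There Mki67 was called lower, and Kif20b, Cenpf and Cenpe also had log2 changes below 0 but were not called. The part of length, base composition or nuclear RNA in the fall of the 4 genes was not tested beyond offsets for GC content and length, with which the 4 were still called.

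Knockdown of Prdx1 after H2O2, siprdx1 with H2O2 against siNC with H2O2, left all 35 log2 fold changes below 0, with a median of -0.21 beside 0.00 over all genes tested. It lowered 8 genes and raised none, against 1.83% lower and 0.901% higher over all genes. The 4 genes led again: Kif20b at 0.467 of its siNC level, Cenpf at 0.568, Cenpe at 0.614 and Mki67 at 0.742. This comparison, H2O2 in siprdx1 and FV in siprdx1 share the 3 siprdx1 libraries with H2O2, so they do not repeat one another independently.

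In siNC libraries with H2O2 Kif20b was at 17.3, 16.9 and 16.7 CPM against 8.63, 6.61 and 8.51 CPM in siprdx1 (-1.10 ± 0.14, edgeR adjusted p = 3.25e-05). Cenpf was at 18.8, 21.1 and 16.8 CPM against 11.7, 9.35 and 11.2 CPM (-0.81 ± 0.12, edgeR adjusted p = 0.000332). Cenpe was at 21.7, 24.6 and 21.2 CPM against 15.2, 12.5 and 13.8 CPM (-0.70 ± 0.11, edgeR adjusted p = 0.000439). No siprdx1 library reached the lowest siNC library in these 3 genes. Mki67 was at 121, 126 and 119 CPM against 90.2, 90.6 and 90.8 CPM (-0.43 ± 0.06, edgeR adjusted p = 0.000133), again without overlap.

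The other 4 calls were smaller. Cdk1, the kinase of mitotic entry, was at 66.9, 66.1 and 62.6 CPM in siNC libraries, against 56.4, 53.2 and 55.7 CPM with siprdx1 (-0.24 ± 0.06, edgeR adjusted p = 0.0168). Kif20a, a motor of the central spindle, was at 39.8, 45.5 and 41.8 CPM against 33.9, 35.3 and 37.4 CPM (-0.25 ± 0.06, edgeR adjusted p = 0.0323). Both pairs of groups stood apart. Racgap1, a subunit of centralspindlin, was at 52.3, 51.7 and 51.9 CPM against 44.2, 43.8 and 45.9 CPM (-0.22 ± 0.06, edgeR adjusted p = 0.0475). Tpx2, which activates Aurora A on the spindle, was at 48.6, 51.8 and 48.0 CPM against 39.1, 43.4 and 41.7 CPM (-0.26 ± 0.07, edgeR adjusted p = 0.0488). Next came Spc25, of the Ndc80 complex, at -0.46 ± 0.13 (edgeR adjusted p = 0.0538).

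These 4 smaller calls were less firm than the first 4. Without any 1 of the 6 libraries the count of 8 went to 5; Kif20b, Cenpf, Cenpe and Mki67 were called in all 6 of those fits, Cdk1 in 2, Kif20a in 2, Tpx2 in 1 and Racgap1 in none. With offsets for GC content and transcript length 15 members were called lower, beside 4.64% of all genes under the same offsets. With RLE size factors 6 were called lower, without the low-count filter or with library size alone 5, and with only the groups compared 4. Groups did not overlap for 18 of the 35 genes, each lower in siprdx1, against 9.13% of all tested genes that lay lower without overlap. Summed macrophage markers were at 9807 to 10500 CPM in siNC with H2O2 and at 8650 to 8853 CPM in siprdx1 with H2O2, with 2 of 17 called lower and none at 0. Summed fibroblast markers were at 19020 to 19710 and 17340 to 18610 CPM, with 2 of 9 called higher and 3 lower, and their part in the result was not tested. Among the 2327 long genes outside the family the median log2 fold change was 0.03 and 1.68% were called lower, and among the 437 long genes of low GC content the median was 0.07 and 1.60% were called lower.

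**Figure D4:**
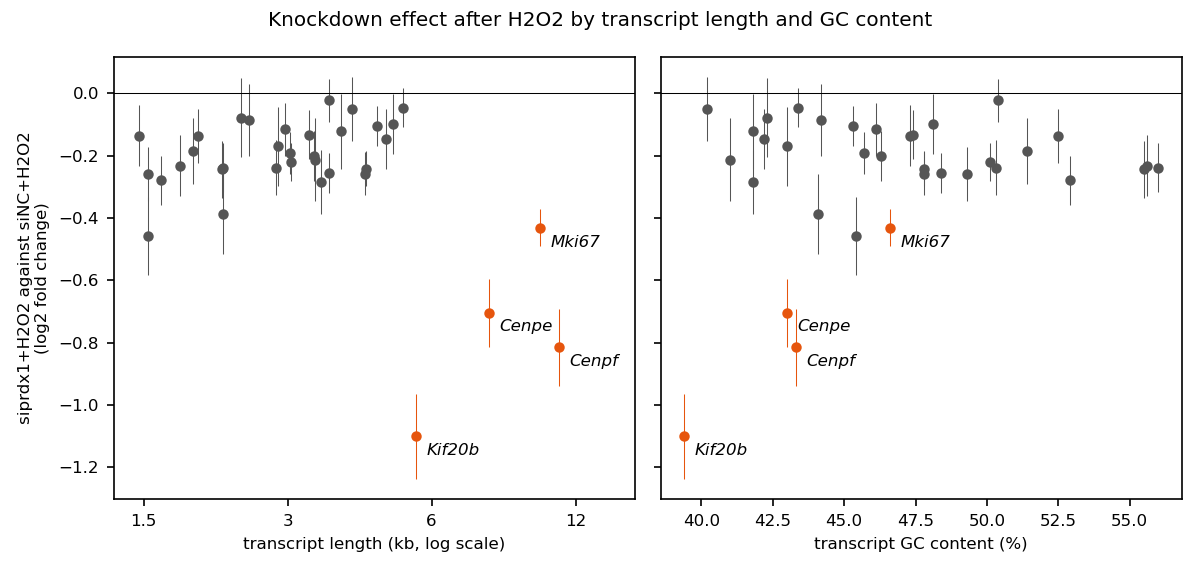
Log2 fold change of the knockdown after H2O2 (vertical axis) against transcript length in kb on a log axis (left) and GC content in percent (right) for the 35 genes (points, error bars are SE). Kif20b, Cenpf, Cenpe and Mki67 lie at -1.10 to -0.43 and are the 4 longest, and the other 31 genes lie between -0.46 and -0.02.

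FV after H2O2 in siprdx1 cultures raised 4 genes, Kif20b 1.87-fold, Cenpf 1.56-fold, Cenpe 1.44-fold and Mki67 1.26-fold, and lowered none. The other 31 genes had a median log2 change of -0.03. Over all genes 12.6% were called higher and 11% lower, so the share of members called higher was not above that of all genes. Kif20b was at 14.2, 13.8 and 16.4 CPM with FV (log2 fold change 0.90 ± 0.14, edgeR adjusted p = 2.76e-05). Cenpf was at 15.8, 17.1 and 17.4 CPM (0.64 ± 0.12, edgeR adjusted p = 0.000423). Cenpe was at 19.2, 20.6 and 19.98 CPM (0.53 ± 0.11, edgeR adjusted p = 0.000868). Each of these libraries lay above all 3 with H2O2 alone.

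Mki67 was at 113, 111 and 117 CPM with FV (0.33 ± 0.06, edgeR adjusted p = 0.000225), also without overlap. Next was Ndc80, the microtubule-binding subunit of the kinetochore, at 10.3, 7.31 and 9.25 CPM with H2O2 and 10.7, 11.0 and 12.1 CPM with FV (0.33 ± 0.13, edgeR adjusted p = 0.0648). With library size alone as scaling, 6 members were called lower; with GC and length offsets 7 were called higher and 1 lower, beside 16.9% and 14.4% of all genes. Summed smooth muscle markers were at 1102 to 1252 CPM with H2O2 alone and at 1927 to 2169 CPM with FV, with 4 of 7 called higher and 1 lower, and fibroblast markers at 17340 to 18610 and 15870 to 16540 CPM, with 1 of 9 called higher and 2 lower; their part was not tested. Malat1 rose in the same comparison by 1.24 on the log2 scale (edgeR adjusted p = 3.14e-08), from 505 to 632 CPM to 1138 to 1562 CPM. Meg3 rose by 1.26 and Neat1 by 0.413, while Kcnq1ot1 had 0.142 and was not called (edgeR adjusted p = 0.601). The part of these RNAs was not tested.

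Set against siprdx1 cultures without H2O2, those with H2O2 and FV had 1 member called lower and none higher, against 12.9% and 12.7% of all genes. Mki67 was at 113, 111 and 117 CPM against 124, 131 and 131 CPM (-0.18 ± 0.06, edgeR adjusted p = 0.0309). This call was lost without siprdx1 replicate 2 or 3 and without replicate 1 or 2 of the FV group, and with GC and length offsets no member was called lower and 3 higher. Kif20b had a log2 change of -0.28 ± 0.13 (edgeR adjusted p = 0.12), Cenpf -0.16 and Cenpe -0.15. Prc1 had 0.19 ± 0.07 (edgeR adjusted p = 0.0507) and Spc25 0.34 ± 0.13 (edgeR adjusted p = 0.0576).

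In siNC cultures with H2O2, 30 of the 35 genes had a log2 change above 0, with a median of 0.11 beside 0.01 over all genes. Members below 0 numbered 5 with all libraries and 10 without replicate 1 of siNC with H2O2. Summed macrophage markers were at 8528 to 9449 CPM before and at 9807 to 10500 CPM after H2O2, with 2 of 17 called higher (Cd14 and Lyz2), none lower and none at 0, and summed fibroblast markers were at 17900 to 18950 and 19020 to 19710 CPM with none of 9 called by edgeR and 1 at an unadjusted p below 0.05. Their part was not tested. H2O2 raised 1 gene and lowered 1, against 2.36% and 4.59% of all genes. Cdk1 rose from 55.4, 49.5 and 55.0 CPM to 66.9, 66.1 and 62.6 CPM (0.29 ± 0.06, edgeR adjusted p = 0.00201), with no overlap. Mki67 fell from 132, 159 and 140 CPM to 121, 126 and 119 CPM (-0.24 ± 0.06, edgeR adjusted p = 0.0159).

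The gene next in rank was Aurka, the kinase of centrosome maturation, at 14.9, 12.1 and 13.5 CPM before and 19.7, 14.6 and 17.3 CPM after H2O2 (0.35 ± 0.11, edgeR adjusted p = 0.0502). These groups overlapped. Kif20b was at 18.4, 26.2 and 20.7 CPM before and 17.3, 16.9 and 16.7 CPM after (-0.36 ± 0.12, edgeR adjusted p = 0.0838), Cenpf had a log2 change of -0.27 and Cenpe -0.17, and siNC replicate 2 was the highest of the 18 libraries in all 3. The same-numbered libraries of these 2 groups deviated together, and with the replicate as a block 2 members were called higher, Aurka being added, and 1 lower. The Mki67 call was lost without siNC replicate 2 and without replicate 1 or 3 of the H2O2 group, and with GC and length offsets its log2 change was -0.10 and 4 members were called higher.

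**Figure D5:**
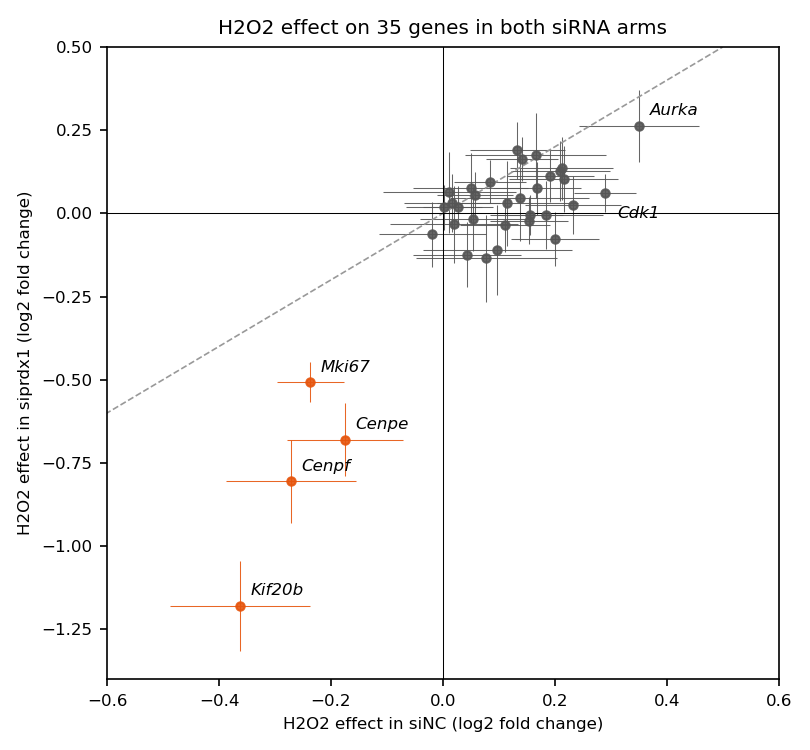
Log2 fold change with H2O2 in siNC (horizontal axis) against that in siprdx1 (vertical axis) for the 35 genes (points, error bars are SE), with a dashed line of equal change. Most genes lie to the right of 0 and near 0 on the vertical axis, and Kif20b, Cenpf, Cenpe and Mki67 lie lower, at -1.18 to -0.51 in siprdx1.

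FV after H2O2 in siNC cultures lowered 4 genes and raised none, against 11.3% and 13.5% of all genes. The share of members called lower was thus close to that of all genes. Plk1, the kinase that acts from centrosome maturation to cytokinesis, fell from 27.1, 29.3 and 29.9 CPM to 22.3, 20.97 and 22.99 CPM (-0.38 ± 0.08, edgeR adjusted p = 0.000846). Kif2c, which takes microtubules apart at centromeres, fell from 18.4, 15.8 and 16.1 CPM to 12.7, 13.0 and 13.2 CPM (-0.37 ± 0.09, edgeR adjusted p = 0.00402). Cdk1 fell to 52.7, 54.1 and 54.8 CPM (-0.27 ± 0.06, edgeR adjusted p = 0.000761), within the range of the siNC libraries without H2O2. In all 3 the groups stood apart.

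Racgap1 was called at -0.17 ± 0.06 (edgeR adjusted p = 0.0415), from 52.3, 51.7 and 51.9 CPM to 46.7, 47.3 and 44.7 CPM, and this call was lost without any 1 of the 6 libraries. Mki67, called higher with FV in siprdx1, had 0.15 ± 0.06 here (edgeR adjusted p = 0.0656) and Kif20b 0.10. With library size alone as scaling 14 members were called lower, with the median of all genes moved to -0.11, and with GC and length offsets 7, beside 13.4% of all genes. Summed macrophage markers were at 9807 to 10500 CPM with H2O2 alone and at 8648 to 8761 CPM with FV, with 7 of 17 called lower, 1 higher and none at 0; their part was not tested. Against siNC without H2O2, the cultures with H2O2 and FV had no member called in either direction by edgeR, against 11.3% higher and 11.6% lower of all genes, nor by DESeq2 or limma voom, and 4 members had an unadjusted p below 0.05. Plk1 was nearest there at -0.19 ± 0.08 (edgeR adjusted p = 0.0886).

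Without H2O2, knockdown of Prdx1 left 34 of 35 log2 fold changes below 0 with a median of -0.09, beside 0.00 over all genes. With siNC replicate 2 or siprdx1 replicate 2 left out, 28 were below 0. Of the 35, 1 gene was called. Kif20a was at 36.95, 39.5 and 38.8 CPM in siNC libraries, against 30.8, 30.9 and 33.6 CPM with siprdx1 (-0.28 ± 0.07, edgeR adjusted p = 0.0217), against 1.67% of all genes called lower and 0.657% higher. The call was kept without siNC replicate 1 or siprdx1 replicate 3 and lost without each of the other 4 libraries. With GC and length offsets 3 members were called lower, beside 3.52% of all genes. Summed fibroblast markers were at 17900 to 18950 CPM in siNC libraries and at 15090 to 15840 CPM in siprdx1 libraries, with 4 of 9 called lower, and smooth muscle markers at 1291 to 1473 and 1097 to 1202 CPM, with 2 of 7 called lower. None of either list was called higher or at 0 in all libraries, and their part was not tested. Spc25 was at 12.5, 15.1 and 11.6 CPM against 9.82, 10.4 and 10.1 CPM (-0.37 ± 0.13, edgeR adjusted p = 0.194), without overlap.

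After H2O2 and FV, 29 of the 35 log2 differences between siprdx1 and siNC were below 0, with a median of -0.11 beside 0.00 over all genes. Mki67 was called lower at 113, 111 and 117 CPM against 129, 143 and 135 CPM (-0.25 ± 0.06, edgeR adjusted p = 0.0151), and no gene was called higher, against 2.35% lower and 1.62% higher of all genes. The Mki67 call was lost without replicate 2 of the siNC group or replicate 1 or 2 of the siprdx1 group, and with GC and length offsets. Ttk was next at 8.35, 8.91 and 6.75 CPM in siNC libraries, against 6.85, 5.598 and 5.41 CPM with siprdx1 (-0.42 ± 0.13, edgeR adjusted p = 0.0797). These groups overlapped by 1 library.

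Averaged over the 3 treatments, all 35 genes had a knockdown difference below 0, with a median of -0.13. Of the 35, 9 were called lower and none higher, against 5.46% and 3.93% of all genes. They were Kif20b (-0.56), Cenpf (-0.45), Cenpe (-0.40), Spc25 (-0.30), Mki67 (-0.28), Kif20a (-0.24), Prc1 (-0.16), Anln (-0.14) and Racgap1 (-0.11). Anln is the scaffold of the contractile ring, so 4 of the 6 central spindle and cytokinesis genes were among the 9, with 3 of 9 kinetochore and checkpoint genes. Racgap1 was called in 4 of the 18 fits that left out a library, and the other 8 in all 18; the count was 15 without replicate 1 of siprdx1 with H2O2 and 23 with GC and length offsets, under which 8.33% of all genes were called lower. Summed fibroblast markers were lower in siprdx1 than in siNC under each treatment without overlap, with 5 of 9 called lower and 2 higher in the average, and their part was not tested. Kif20a shares 1271 bases with Cdc23 on the opposite strand and Prc1 911 with Rccd1; whether counting used strand is not recorded, so reads of such pairs cannot be told apart here.

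The difference between the arms was tested as an interaction. For H2O2, no member was called in either direction by edgeR, against 0.201% of genes lower and 0.0426% higher; 6 members had an unadjusted p below 0.05. Kif20b had the largest difference, -0.82 ± 0.18 (edgeR adjusted p = 0.0807), followed by Cenpf at -0.53 (0.386), Cenpe at -0.50 (0.316) and Mki67 at -0.27 (0.368), with edgeR adjusted p in parentheses. The H2O2 response of these genes was thus not shown to differ between the arms by edgeR at the threshold. Limma voom called none, DESeq2 and the fit without the low-count filter each called 1 member lower, and the fit with GC and length offsets 4.

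For FV the interaction was called for 1 member, higher in siprdx1, against 0.463% of genes higher and 0.189% lower. Kif20b differed by 0.80 ± 0.19 (edgeR adjusted p = 0.0485), with a change of 0.10 in siNC and 0.90 in siprdx1. The call was kept without replicate 1 of siNC with H2O2 and FV and lost without each of the other 11 libraries. With DESeq2, limma voom, the replicate block, other size factors or library size alone no member was called, and with GC and length offsets 6 were. Cenpf had 0.57 ± 0.17 (edgeR adjusted p = 0.161) and Plk1 0.34 ± 0.11 (edgeR adjusted p = 0.201).

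Other genes of cell division were followed by lists. Of 60 further mitotic genes, the knockdown after H2O2 lowered 8 (13.3%, against 1.83% of all genes) and raised none, with a median of -0.19. Smc4, a condensin subunit, was at 62.7, 70.3 and 57.7 CPM in siNC with H2O2 and at 42.9, 33.3 and 39.5 CPM in siprdx1 with H2O2 (-0.72 ± 0.10, edgeR adjusted p = 0.000227). The groups stood apart. H2O2 in siprdx1 lowered 4 of the 60 (6.67%, against 5.39% of all genes), among them Smc4 (-0.82), and raised 1, against 2.48% of all genes. FV in siprdx1 raised 6 (10%, against 12.6%) and lowered none, with Zwint (0.46), a kinetochore protein, and Smc4 (0.62) at the lowest p. In siNC, H2O2 raised 2 (Cdca3 0.32, Hmgb2 0.34) and lowered 1, against 2.36% and 4.59% of all genes. Of 6 fits that each left out 1 library, Cdca3 kept its call in 4 and Hmgb2 in 3. FV in siNC raised 3 and lowered 5 (5% and 8.33%, against 13.5% and 11.3%), with Zwint at 0.46 and Pimreg at -0.54.

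Of 30 genes of DNA replication, the knockdown after H2O2 lowered 2 and raised none. They were Rrm2 (-0.35), the regulated subunit of ribonucleotide reductase, and Mcm10 (-0.43). Over all genes 1.83% were called lower and 0.901% higher. With each of 6 libraries left out in turn, Rrm2 kept this call in 6 fits and Mcm10 in 2. H2O2 raised Rrm2 in both arms, by 0.25 in siNC and 0.22 in siprdx1, and called no other of the 30. Over all genes H2O2 called 2.36% higher and 4.59% lower in siNC, and 2.48% and 5.39% in siprdx1. FV raised 4 in each arm (13.3%, against 13.5% of all genes in siNC and 12.6% in siprdx1). Cdt1, which licenses replication origins, rose by 0.47 in siNC and 0.62 in siprdx1. FV lowered 2 in siNC, Mcm7 (-0.28) having the lower p, and none in siprdx1, against 11.3% and 11% of all genes. Of 7 inhibitors of cyclin-dependent kinases, Cdkn1a (p21) rose with FV, by 0.49 in siNC and 0.80 in siprdx1. It also rose with H2O2, by 0.29 in siNC and 0.24 in siprdx1, and H2O2 in siprdx1 raised Cdkn1c (0.40). Of 6 fits that left out a library, 3 kept the Cdkn1a call with H2O2 in siprdx1 and 4 the Cdkn1c call. Cdkn2b (-0.55) and 3 more fell with FV in siNC, and Cdkn1b (-1.07) and 2 more in siprdx1, against 11.3% and 11% of all genes.

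The 22 transcriptional regulators of the cell cycle had no call with H2O2 in either arm by edgeR, where 1 in siNC and 2 in siprdx1 had an unadjusted p below 0.05. FV raised Nfya and Nfyb, subunits of the factor that binds CCAAT boxes, by 0.20 and 0.29 in siNC and by 0.23 and 0.53 in siprdx1, in all 2 higher and 1 lower of 22 in siNC (9.09% and 4.55%) and 3 and 2 in siprdx1 (13.6% and 9.09%), close to or below the shares of all genes called with FV. The knockdown after H2O2 raised 1, Tfdp2 (0.29), against 0.901% of all genes, and 3 of 6 fits that left out a library kept the call. Of 17 subunits and partners of the anaphase-promoting complex none was called by edgeR with H2O2 in either arm or with knockdown in any treatment, and 0 to 3 had an unadjusted p below 0.05 in these comparisons. FV called 2 higher and 1 lower in siNC (11.8% and 5.88%, against 13.5% and 11.3% of all genes) and 3 and 2 in siprdx1 (17.6% and 11.8%, against 12.6% and 11%), Anapc15 rising by 0.30 and 0.58. Of 8 cyclins and kinases of G1 phase none was called by edgeR with H2O2 or with the knockdown after H2O2, where 0 to 2 had an unadjusted p below 0.05. Ccnd1 fell with FV by 0.15 in siNC and 0.18 in siprdx1, where 11.3% and 11% of all genes were called lower. With each of 6 libraries left out, its call was kept in 2 fits in siNC and in 4 in siprdx1.

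Some members share sequence with other loci. Opposite-strand neighbours overlap Ccna2, Cdc20, Cdca8, Kif20a, Kif4, Nusap1, Prc1 and Ube2c by 53 to 1271 bases. Transcripts at least 90% identical over 300 bases exist, among others, for Ccnb1, whose copy Ccnb1-ps held 1.72% as many counts, and for Ndc80, whose copy 2700099C18Rik held 29.4%, and stretches of Hmmr match other genes with more counts than Hmmr, such as Txndc16 (294%) and Mcoln1 (179%). The values of these genes are uncertain, since reads that match several loci could have been dropped or misplaced in the authors' counting. For Kif20b, Cenpf and Mki67 no such copy was found, and the copies of Cenpe held no counts.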

How the data were processed

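PolyA RNA of the cultures was read on a NovaSeq after a stranded library kit, per the labels. The authors deposited raw counts per gene, made with HISAT2 and HTSeq on mm10 per the submitters' processing notes; the versions and the strand setting of counting are not given in the sources used here. All 18 sample columns were used, and 0 sample columns of the table were left out. From the deposited counts, edgeR 4.0.16 (R 4.3.3; TMM scaling, filterByExpr, robust quasi-likelihood fit of 6 group means over 18 libraries) gave 12 contrasts, each with Benjamini-Hochberg adjustment over 16432 genes; a call is an adjusted p below 0.05. SE is the log2 fold change divided by the square root of F. CPM uses TMM library sizes; the common biological coefficient of variation was 7.01%. Precision is limited by 3 libraries a group. The script was tested on simulated data. The members and lists were chosen with earlier results of these data known. Library values are given for the members with the smallest p in a comparison (up to 8) and for Mki67, Top2a, Ccnb1 and Cdk1, and from each pathway list the 2 called genes with the smallest p are named, except 1 gene that is not reported here; Malat1 was chosen after its values were seen. Alternatives were RLE size factors, library size alone, no filter, the replicate block, only the groups compared, DESeq2 1.42.0, limma voom 3.58.1, each library left out and, added after seeing the data, offsets for GC content and length. The replicate numbers come from the titles. Deviations from the group means of same-numbered libraries correlated at 0.135, 0.135 and 0.118 for H2O2 in siNC. In each other comparison of 2 groups they correlated at 0.1 or less for at least 1 pair. The main fit had no replicate term in any comparison, and the replicate block was only an alternative. Near copies were sought with blastn 2.17.0+. Replicates within groups differed by more than sampling noise.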

Additional observations from a re-analysis of the deposited data

Results flagged for a closer look

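The change with FV after H2O2 was called different between the siRNA arms, by the interaction term, for 3 genes among the members and lists above. Over all tested genes 0.463% were called higher and 0.189% lower for this term. For Kif20b the difference, siprdx1 minus siNC, was 0.805 on the log2 scale (SE 0.188, edgeR adjusted p = 0.0485), with changes of 0.90 in siprdx1 and 0.10 in siNC. For Hmgb2, a chromatin protein of dividing cells, it was 0.605 (SE 0.131, edgeR adjusted p = 0.0279). For Cdkn1b, the kinase inhibitor p27, it was -0.528 (SE 0.121, edgeR adjusted p = 0.0438), with falls of 1.07 in siprdx1 and 0.541 in siNC. Of the 12 libraries left out in turn, the call was kept in 1 fit for Kif20b, 4 for Hmgb2 and 2 for Cdkn1b. Kif20b was not called with DESeq2, limma voom, the replicate block, RLE size factors or library size alone.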

How the results depend on the processing

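The 4 falls with H2O2 in siprdx1 and the 4 rises with FV in siprdx1 (Kif20b, Cenpf, Cenpe, Mki67) kept direction and call under every alternative and without each library; the same genes kept their calls in the knockdown after H2O2 in every fit that left out a library. Over all results and settings, values of single genes and counts of called members were pooled. Of these, 4833 were labelled the same, 491 weaker, 269 stronger, 8 moved and 10 reversed. A count could be labelled the same after a small change, such as 8 to 6 for the knockdown after H2O2 with RLE size factors. A larger change, such as 4 to 14 for FV in siNC with library size alone, was labelled stronger. The cause of these changes was not tested.

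Counts of called members changed with offsets for GC content and length, under which calls over all genes rose as well (higher and lower, from 387 and 755 to 846 and 918 for H2O2 in siNC, from 407 and 886 to 1247 and 1294 for H2O2 in siprdx1, from 148 and 300 to 577 and 762 for the knockdown after H2O2, from 645 and 897 to 1372 and 1369 averaged, from 7 and 33 to 63 and 127 for the H2O2 interaction and from 76 and 31 to 242 and 87 for the FV interaction). With these offsets, H2O2 in siNC gave 4 higher and 0 lower, H2O2 in siprdx1 2 higher, FV in siNC 7 lower, FV in siprdx1 7 higher and 1 lower, H2O2 and FV 2 lower in siNC and, in siprdx1, 3 higher and 0 lower, and the knockdown 3 lower without H2O2, 15 after H2O2, 0 after H2O2 and FV and 23 averaged; the interactions gave 4 lower for H2O2 and 6 higher for FV. With library size alone, FV gave 14 lower in siNC and 6 in siprdx1, H2O2 and FV 6 lower in siNC and 7 in siprdx1, and the knockdown 0 lower without H2O2 and 5 after H2O2, with 0 for the FV interaction; this scaling moved the median of all genes to -0.114 for FV and -0.119 for H2O2 and FV in siNC (-0.108 and -0.135 in siprdx1), and calls over all genes from 2226 higher and 1864 lower to 1474 and 3835 for FV in siNC, from 2066 and 1810 to 1463 and 3634 for FV in siprdx1, from 1862 and 1913 to 1170 and 4003 for H2O2 and FV in siNC and from 2079 and 2114 to 1153 and 4503 in siprdx1, and from 645 and 897 to 977 and 719 for the averaged knockdown, from 108 and 275 to 163 and 199 without H2O2, from 266 and 386 to 311 and 302 after H2O2 and FV. Without the filter, H2O2 in siNC gave 2 higher and 2 lower, H2O2 and FV in siprdx1 1 higher and 0 lower, the knockdown 0 lower without H2O2 and 5 after it, and the interactions 1 lower for H2O2 and 2 higher for FV. With only the groups compared, H2O2 in siNC gave 0 lower, FV in siNC 1 higher, H2O2 and FV in siprdx1 1 higher, and the knockdown 0 lower without H2O2 and 4 after it. RLE gave 2 higher for H2O2 in siNC and 0 for the FV interaction, DESeq2 2 and 0 with 1 lower for the H2O2 interaction, and limma voom 0 for the FV interaction. RLE also gave 6 lower for the knockdown after H2O2. FV in siNC gave 3 lower without the filter and with only the groups compared. Small changes in counts are not all listed.

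With the replicate block, H2O2 in siNC, where same-numbered libraries deviated together, gave 2 members higher. FV in siNC gave 1 higher and the FV interaction 0. The block with GC and length offsets gave, in the order used above for those offsets, 4 and 0, 3, 7, 8 and 1, 2, 3 and 0, 5, 16, 2, 24, 4 and 6. It changed no other count by over 1.5 times.

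Leaving out 1 library gave 1 to 2 higher and 0 to 2 lower for H2O2 in siNC, 0 to 1 higher for H2O2 in siprdx1, 0 to 1 higher and 3 to 5 lower for FV in siNC, 4 to 5 higher and 0 to 1 lower for FV in siprdx1, 0 to 1 in each direction for H2O2 and FV in siNC, and 0 to 2 higher and 0 to 1 lower in siprdx1. The knockdown gave 0 to 1 lower without H2O2, 5 after H2O2, 0 to 2 after H2O2 and FV and 8 to 15 averaged, and the interactions 0 to 1.

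Values near 0 reversed. For FV in siNC, Kif20b was -0.00734 with library size alone, -0.0926 with GC and length offsets and -0.0899 with these and the block; Cenpf was -0.0349, -0.118 and -0.118, and from -0.0141 (without replicate 3 of siNC with H2O2) to 0.161 with a library left out; Cenpe was -0.0345 and -0.0357 with the offsets. For H2O2 and FV in siNC, Cenpe ranged from -0.161 to 0.0699 (without siNC replicate 2) with a library left out. The lowest count of a member in a library was 87; counting error and the number of libraries both limit precision, and were not compared.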

Other observations

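Over the 18 libraries, the genes whose log2 level was most like the mean of Kif20b, Cenpf, Cenpe and Mki67, among 11345 genes at 5 CPM or more, included Smc4 (Pearson r = 0.955), Ms4a14 (0.921), AI987944 (0.913) and Clk1 (0.91). The 4 genes were chosen after their values were seen, and the libraries share groups, so the values are a description. Smc4 acts on mitotic chromosomes, and Clk1 is a kinase of splicing factors, at 142.9 CPM on average. In the knockdown after H2O2 Ms4a14, AI987944 and Clk1 had log2 fold changes of -0.818, -0.633 and -0.669 (edgeR adjusted p = 7.42e-05, 0.00584 and 0.000231). The genes were picked for likeness over libraries that include those compared here. Their fold changes and adjusted p therefore belong to the description and are no separate test. Knl1, the kinetochore scaffold that recruits the checkpoint, had r = 0.891 and -0.34 (edgeR adjusted p = 0.122).

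The nuclear RNA Meg3 was at 69.3, 74.5 and 78.5 CPM in siNC with H2O2 and at 53.3, 56.3 and 54.5 CPM in siprdx1 with H2O2, a log2 fold change of -0.439 (edgeR adjusted p = 0.000241). Malat1 had -0.454 there (edgeR adjusted p = 0.0238), Neat1 -0.02 (edgeR adjusted p = 0.911) and Kcnq1ot1 0.102 (edgeR adjusted p = 0.853).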
